A study of Mus musculus with 14 samples.

Results

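A total of 135 of the 2030 rows in the deposited miRNA table were isoforms whose name carries a shift of 2 or more bases and whose level passed a rule on low values. A row qualified when its name ends in a plus or minus sign and a number of at least 2, and when it reached at least 10 RPM (reads scaled to a total of 1e+06 per library) in at least 3 of the 14 libraries. Of 912 rows with such a suffix, 135 passed, and they belong to 58 miRNA names. The sign was read as the direction in which the 5′ start moves along the precursor, plus for downstream and minus for upstream, because the table header does not define it. By that reading 72 rows start downstream and 63 start upstream of the row of the same name without a suffix, called the unsuffixed row here.

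The small intestine of C57BL/6J mice with a Sox9-eGFP reporter was the source of all libraries, and in this reporter green fluorescence tracks Sox9 activity. Sorting by fluorescence gave High, Low, Sublow and Negative populations with 3 libraries each, and 2 further libraries came from Non-sorted cells. The reporter was thus shared by all 5 groups and the labels name no treatment. They give neither the age of the mice nor whether replicate libraries stem from different animals. Libraries with the same replicate number share a code in their descriptions in all 5 groups, and what that code marks is not stated. The fits treat these libraries as unpaired, and counts over all the chosen rows with the replicate number as a block are given where they differ. The p-values therefore measure the spread between these libraries, which may be technical. In this reporter mouse the High gate has been linked to enteroendocrine cells, the Low gate to stem cells of the crypt, the Sublow gate to dividing progenitors and the Negative gate to differentiated epithelium, and each gate can hold more than 1 cell type. In bulk libraries, a smaller number of cells of a type and less RNA per cell cannot be told apart.

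A miRNA is cut from a hairpin precursor, first by Drosha in the nucleus and then by Dicer in the cytoplasm, and 1 strand is loaded into an Argonaute protein. Target choice rests mainly on the seed, bases 2 to 8 from the 5′ end. A form whose start moves therefore reads a different seed, while a change at the 3′ end leaves the seed as it is. Such 5′ isoforms are usually rarer than the annotated form, but for some miRNAs they are abundant.

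The sequences below show how the start shift changes the seed in the rows that the results turn on. They are RefSeq mature and precursor sequences of GRCm38.p6, with the seed of each form in capitals. The shifted start was counted from the RefSeq start, which was assumed to be the start of the unsuffixed row, and the RefSeq 3′ end was kept because the table gives no read ends.
miR-192-5p: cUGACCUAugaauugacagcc
miR-192-5p_+_2: gACCUAUGaauugacagcc
miR-215-5p_+_2: gACCUAUGauuugacagac
miR-200b-3p: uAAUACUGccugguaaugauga
miR-200b-3p_+_2: aUACUGCCugguaaugauga
miR-200c-3p_+_2: aUACUGCCggguaaugaugga
let-7b-5p: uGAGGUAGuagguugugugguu
let-7b-5p_+_3: gGUAGUAGguugugugguu
let-7b-5p_+_7: gUAGGUUGugugguu
miR-142-5p: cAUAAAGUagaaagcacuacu
miR-142-5p_-_2: cCCAUAAAguagaaagcacuacu
miR-26a-1-5p_-_4: cUCGUUCAaguaauccaggauaggcu
miR-26a-2-5p_-_4: uGGAUUCAaguaauccaggauaggcu

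On GRCm38.p6 the unshifted miR-192-5p lies at chr19:6264857-6264877 (plus strand), miR-215-5p at chr1:185313610-185313630 (plus), miR-200b-3p at chr4:156055685-156055706 (minus) and miR-200c-3p at chr6:124718324-124718346 (minus). The unshifted let-7b-5p lies at chr15:85707325-85707346 (plus) and miR-142-5p at chr11:87756867-87756887 (plus). The 2 copies of miR-26a-5p lie at chr9:119031811-119031832 and chr10:126995543-126995564, both on the plus strand. They are identical as mature miRNAs and differ in the bases just upstream.

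RefSeq sequences could be matched for 68 of the 135 rows. None of the 54 rows of 6 names between miR-5099 and miR-5117, described below, was among them. The matching required a name that states the arm (3p or 5p). Of these 6 names only miR-5117-3p states it, so the others could not be matched whether or not RefSeq holds them. In 0 of the 68 did the shifted form keep the seed of its unsuffixed form. A move of 2 or more bases makes a changed seed nearly certain. Some shifted seeds were shared. The form of miR-192-5p and that of miR-215-5p moved 2 bases downstream carried the same seed, as did those of miR-200b-3p and miR-200c-3p, and 8 let-7 rows moved 3 bases downstream shared another. For 6 rows the shifted seed was the seed of another annotated mouse miRNA. Among them, the seed of miR-142-5p_-_2 equals that of miR-142b, the seed of miR-21-5p_+_2 that of miR-184-5p, and the seed of miR-181a-2-3p_-_3 that of miR-497a-3p. The first base also differed between forms. Of 46 matched downstream rows, 32 had a U as the first base of the unshifted form and 6 had a U at the shifted start, where G was found in 20. Most of these G starts repeat 1 stretch of let-7, in 8 let-7 rows at 3 bases downstream and 3 each at 4 and 7 bases. The 46 rows are thus not independent. In all RefSeq mouse mature miRNAs a U stands first in 41.3% and a G in 12.8%.

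Sequencing depth, estimated from the steps between low values, ran from 1.89 to 16.4 per library (median 5.01) in units of 1e+06 reads. The smallest value listed in a library was 0.62 to 5.55 RPM, which is 9.97 to 10.9 reads, so a value of 0 stands for fewer than about 10 reads. The summed level of 8 epithelial miRNAs was 197246 to 582433 RPM, against 6.51 to 213 RPM for 5 haematopoietic, 6.87 to 79.1 for 6 mesenchymal and 0 to 17.1 for 2 endothelial miRNAs, and both erythroid miRNAs were listed at 0 in every library. High 1, High 2, Low 2 and Low 3 carry the word Combo in their description in place of a lane number, and the other 10 libraries carry 1 of 3 lane numbers.

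The rows were chosen by their level, so levels near the limit are a description. Just outside, the third highest library of miR-125b-1-5p_-_4 was at 9.66 RPM and that of both miR-103-3p copies shifted 2 bases downstream at 9.79 RPM. Just inside were let-7g-5p_-_4 at 10.3 and miR-30a-5p_-_4 at 10.35 RPM. Of the 135 rows, 91 would have passed without any single group, while 44 would have failed without some group. For those 44 the rule depends on the groups in which they are high, so it favours a difference between groups in these rows. In 70 rows every library had a value, and 65 were listed at 0 in at least 1 library.

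The 135 rows together made up 0.635% ± 0.133 (SD, n = 3) of the RPM in High, 0.638% ± 0.0494 in Low, 0.914% ± 0.182 in Sublow and 2.16% ± 0.607 in Negative libraries, and 2.17% ± 0.598 (n = 2) in Non-sorted libraries. They are described in 3 sets: 54 rows of 6 names between miR-5099 and miR-5117, 17 rows listed only in Combo libraries, and 64 others. Without the first set the share ran the other way, from 0.405% ± 0.131 in High through 0.284% ± 0.031 in Low and 0.231% ± 0.0207 in Sublow to 0.167% ± 0.0067 in Negative libraries. This share includes the 17 Combo rows, which summed to 1974 RPM in High 2 and 474 in High 1. The downstream rows outside the first set hold none of the 17. They made up 0.306% ± 0.0382 in High, 0.238% ± 0.0284 in Low, 0.215% ± 0.0258 in Sublow and 0.157% ± 0.0106 in Negative libraries.

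The level of 97 of the 135 rows differed among the 4 sorted populations at an adjusted p under 0.05 (limma moderated F test, Benjamini-Hochberg over 588 rows), a share of 71.9% beside 72.3% of all rows tested. Between High and Low, 18 rows passed, 8 higher and 10 lower in High, beside 28.1% of all rows (7.99% higher and 20.1% lower), and the library values of 42 did not overlap, beside 43.4% of all rows. Between Sublow and Low, 28 passed, 23 higher and 5 lower, beside 34.7% of all rows (10.4% higher and 24.3% lower), and 42 did not overlap, beside 47.8%. Between Negative and Low, 83 passed, 51 higher and 32 lower, beside 66% of all rows (16.5% higher and 49.5% lower), and 96 did not overlap, beside 73.6%. These counts include the 44 rows that needed some group to pass. Of the 91 rows that needed no single group, 77 differed among the 4 populations. Against Low, 16 of the 91 passed for High, 24 for Sublow and 65 for Negative. The median of all 588 rows was -0.11, -0.43 and -0.90 (log2) in the 3 comparisons and became 0.20, -0.06 and -0.09 when the libraries were rescaled by median ratios, so a change smaller than that shift depends on the scaling. After that rescaling the splits were 13 higher and 8 lower for High, 31 and 1 for Sublow, and 59 and 9 for Negative.

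The first set held 18 of the 20 most abundant rows. miR-5105 and miR-5109 had 14 rows each, miR-5115 had 12, miR-5117-3p had 7, miR-5102 had 6 and miR-5099 had 1. Nothing is stated here of their function. Their starts were spread over many positions. Of the summed mean level of miR-5105, 1.20% lay at the unsuffixed row, 27.9% at 6 bases downstream and 17.2% at 5 bases downstream, with a further 8.46% at 8 bases upstream. For miR-5109, 15.4% lay at the unsuffixed row, 21.5% at 1 base downstream and 17.4% at 3 bases downstream. For miR-5115, 47.1% lay at the unsuffixed row and 13.9% at 7 bases upstream. For miR-5102, 44.2% lay at 3 bases upstream and 0.91% at the unsuffixed row. By contrast, let-7b-5p had 98.6% and miR-215-5p 98.9% at the unsuffixed row. miR-192-5p had 81.6% there and 17.5% at 1 base downstream. Over the 58 names, 12 had 50% or more of their level shifted by 2 or more bases and 32 had under 1%.

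**Figure D1:**
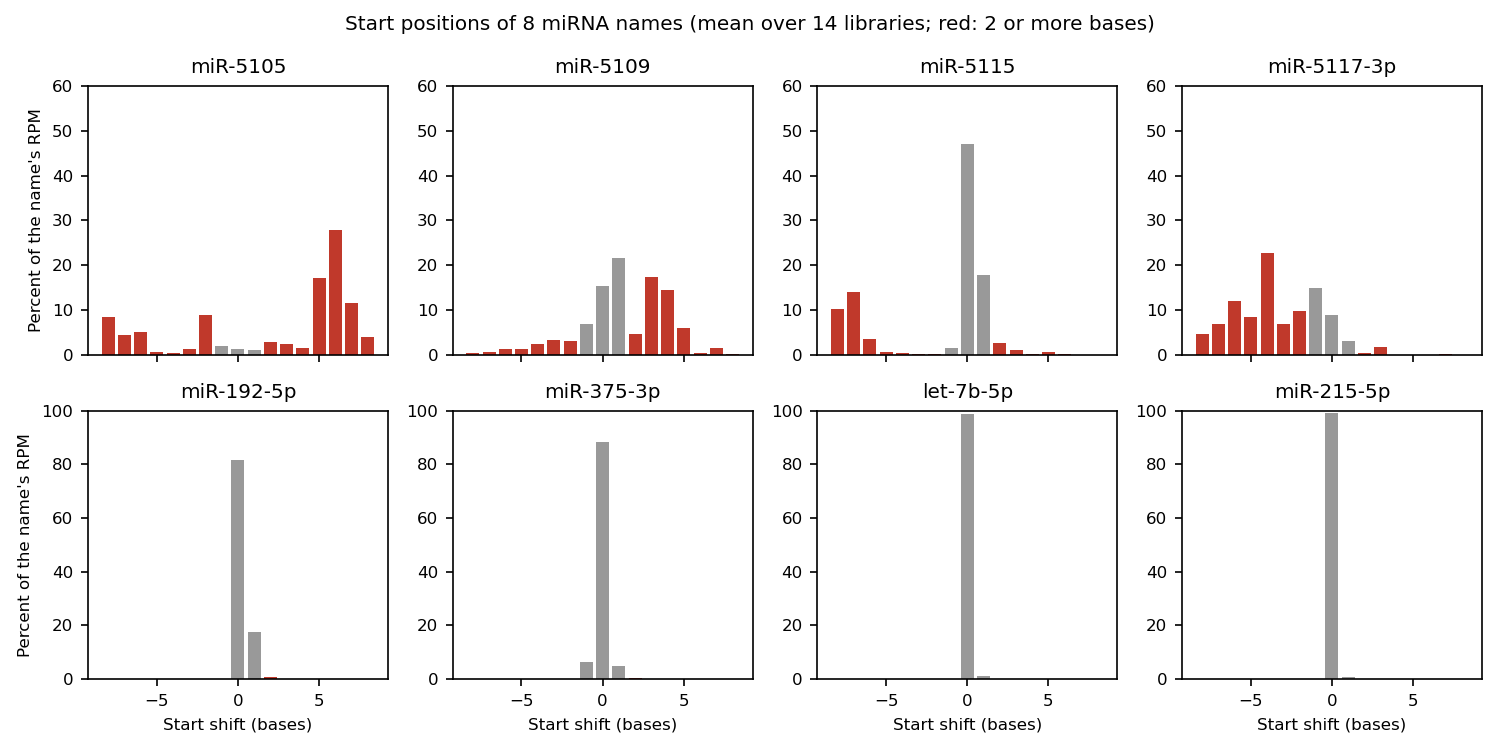
Share of each name's summed mean RPM (vertical axis, percent, from 0 to 60 in the upper row and to 100 in the lower row) by start shift in bases (horizontal axis) over 14 libraries, with shifts of 2 or more in red. miR-5105, miR-5109, miR-5115 and miR-5117-3p are spread over many starts, while miR-192-5p, miR-375-3p, let-7b-5p and miR-215-5p sit at the unsuffixed row and 1 base beside it.

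Rows of miR-5102, miR-5105, miR-5109 and miR-5115 were highest in Negative and Non-sorted libraries. miR-5105_+_6 was at 69.2, 50.8 and 46.4 RPM in the High libraries, 125.1, 49.4 and 47.8 in Low, 262, 273 and 143.4 in Sublow, 1805, 1386 and 1081 in Negative, and 1701 and 1039 in Non-sorted. Every Negative and Non-sorted library lay above every other library. Its level rose by 4.36 ± 0.39 (log2, SE) from Low to Negative (limma adjusted p = 1.13e-06, higher in 3 of 3 libraries) and by 1.69 ± 0.39 from Low to Sublow (limma adjusted p = 0.00502). Without the Combo libraries the Sublow difference was 0.79 (limma adjusted p = 0.28), and with a lane term it was 0.62 (limma adjusted p = 0.30).

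miR-5109_+_3 followed the same order. It was at 137, 156 and 147 RPM in High, 256, 153 and 288 in Low, 693, 1066 and 669 in Sublow, 2112, 3302 and 2316 in Negative, and 2016 and 2057 in Non-sorted. Neither the Sublow nor the Negative libraries overlapped those of Low. The level rose by 1.81 ± 0.25 in Sublow (limma adjusted p = 0.000201) and by 3.49 ± 0.25 in Negative (limma adjusted p = 1.83e-07). miR-5102_-_3 rose by 4.38 ± 0.51 in Negative (limma adjusted p = 1.29e-05), from 33.3, 9.7 and 19.9 RPM in Low to 614, 352 and 316. miR-5105_+_5 and miR-5105_+_7 rose by 3.98 and 4.05 in Negative, and miR-5102_-_5 rose by 3.72. The last difference was 2.76 under a lane term and was not called (limma adjusted p = 0.056).

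In all, 42 of the 54 rows rose and 8 fell from Low to Negative, beside 16.5% and 49.5% of all rows tested. The median difference was 3.03 beside -0.90 over all rows. From Low to Sublow 16 rose and 1 fell, beside 10.4% and 24.3% of all rows. From Low to High 0 rose and 6 fell, beside 7.99% and 20.1%. The shares called were 31.5% in Sublow and 11.1% in High, below the 34.7% and 28.1% of all rows. The 54 rows are starts of 6 names and so are not independent. With a lane term 28 rose and 4 fell in Negative and 11 rose in Sublow, and without the Combo libraries 32 and 6 did so in Negative and 12 rose in Sublow. The 8 that fell in Negative were the 7 rows of miR-5117-3p and miR-5099_-_2, but after median-ratio rescaling 3 of the 54 fell in Negative and 1 rose in High. miR-5117-3p_-_2 and miR-5117-3p_-_4 were then at -0.71 and -0.44 (limma adjusted p = 0.22 and 0.31). miR-5099_-_2 was at 475, 682 and 949 RPM in High, 1183, 1135 and 1831 in Low, 772, 850 and 855 in Sublow, 405, 445 and 455 in Negative, and 646 and 488 in Non-sorted. Each Low library lay above every library of the other groups. It fell by 0.999 ± 0.24 in High (limma adjusted p = 0.00876), by 0.71 in Sublow (limma adjusted p = 0.0373) and by 1.63 in Negative (limma adjusted p = 8.83e-05). Without the Combo libraries the High difference was -0.32 (limma adjusted p = 0.44). The Sublow call was lost without Low replicate 3, where it was -0.49, without any 1 of the Sublow libraries, and with no filter on low values. Rescaling by median ratios gave -0.33, quantile normalization -0.47, a lane term -0.51 and removal of the Combo libraries -0.52, and none of these was called. Its unsuffixed row was listed at 0 to 15.2 RPM, so 97.5% of the name's level lay at 2 bases upstream.

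**Figure D2:**
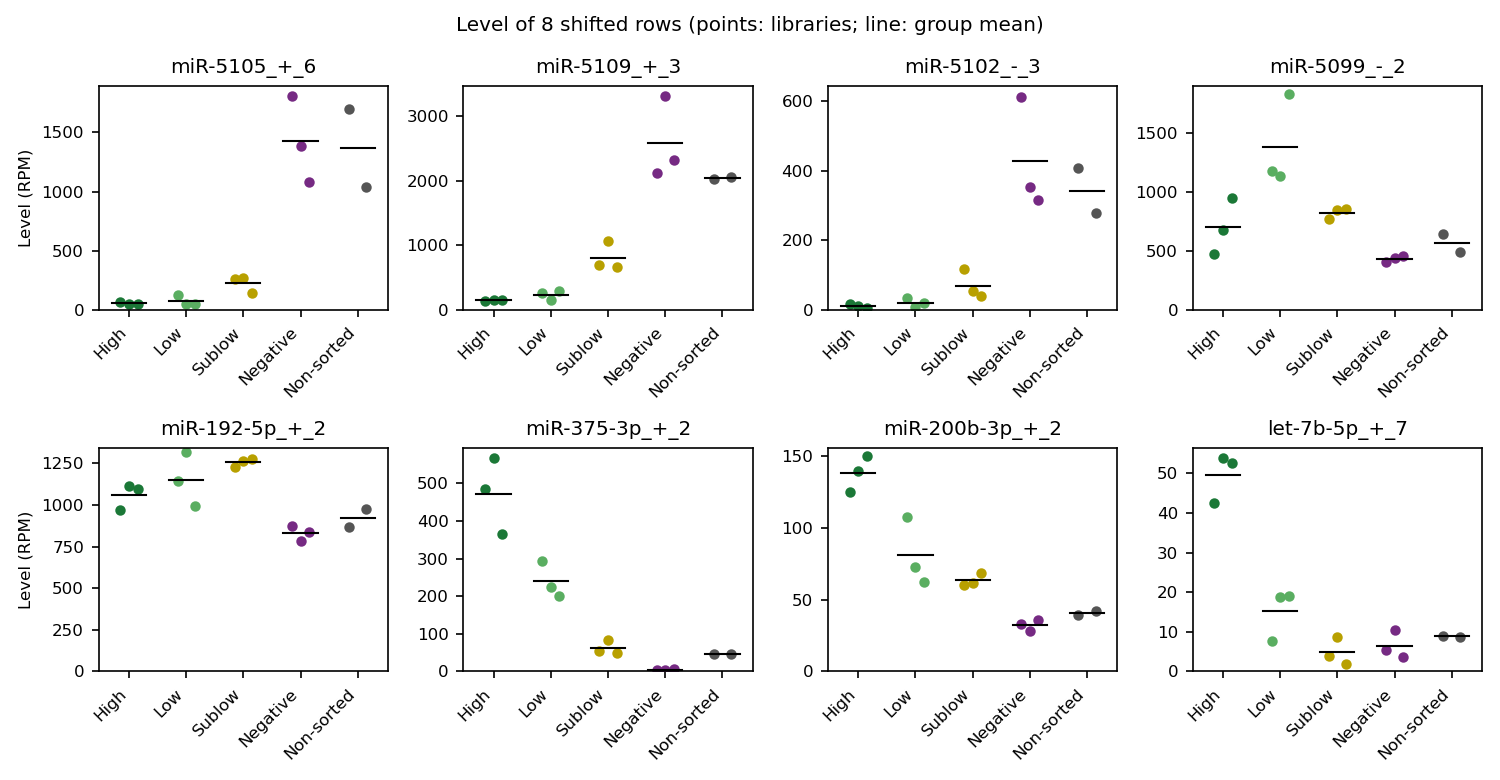
Level in RPM (vertical axis, from 0) of 8 shifted rows in each library (points) by group, with the group mean as a line. Negative and Non-sorted libraries are highest for miR-5105_+_6, miR-5109_+_3 and miR-5102_-_3, Low for miR-5099_-_2, and High for miR-375-3p_+_2, miR-200b-3p_+_2 and let-7b-5p_+_7.

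Replicates of the miR-5115 rows differed more. miR-5115_-_7, the most abundant of all 135 rows, was at 243, 89.5 and 76.6 RPM in High, 399, 134 and 122 in Low, 1494, 729 and 321 in Sublow, 5144, 1624 and 1002 in Negative, and 4450 and 1407 in Non-sorted. In each group the library numbered 1 was the highest. The level rose by 3.43 ± 0.77 in Negative (limma adjusted p = 0.0019). With a lane term the difference was 1.81 (limma adjusted p = 0.23), and without the Combo libraries it was 2.35 (limma adjusted p = 0.12). miR-5115_-_8 rose by 3.35 in Negative and by 2.45 in Sublow, and miR-5115_-_6 rose by 3.49 in Negative. With a lane term both Negative differences, 1.63 and 1.91, missed the threshold (limma adjusted p = 0.24 and 0.15). Without the Combo libraries they were 2.42 and 2.53 (limma adjusted p = 0.13 and 0.071). The Sublow difference of miR-5115_-_8 was 1.13 under a lane term and 1.53 once the Combo libraries were removed (limma adjusted p = 0.48 and 0.43). That call was also lost without Low replicate 2 or 3 and without Sublow replicate 1 or 2.

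Some neighbouring starts of miR-5109 switched from a value to 0. miR-5109_-_4 was at 58.2 and 58.9 RPM in High 1 and High 2 and at 0 in High 3, while miR-5109_-_5 was at 0 in all 3 High libraries, and at 31.3, 24.3 and 53.3 RPM in Low, 71.7, 58.8 and 67.6 in Sublow, and 127, 192.1 and 146 in Negative. The smallest value listed in High 1 was 0.76 RPM, and the unsuffixed miR-5109 row was at 114 to 147 RPM in the High libraries. No fold against High is given for that row. Why a start next to an abundant one is listed at 0 was not tested.

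The ratio of a shifted row to its unsuffixed row in the same library removes the level of the miRNA and the library scale. It was tested as log2((shifted + 1)/(unsuffixed + 1)) for 297 shifted rows, 123 of them among the 135. The ratio differed among the sorted populations for 17 of the 123, or 13.8%, beside 8.42% of the 297. Between High and Low 5 passed, 3 higher and 2 lower, beside 2.69% of all (1.01% higher and 1.68% lower), and the values of 28 did not overlap, beside 17.8%. Between Negative and Low 3 passed, 1 higher and 2 lower, beside 2.02% of all (1.35% higher and 0.673% lower), and 28 did not overlap, beside 20.9%. Between Sublow and Low 0 passed in limma and 20 had an unadjusted p under 0.05, beside 0% called of all, and 20 did not overlap, beside 15.5%. With the replicate number as a block 18 passed in the F test, 14 of them shared with the 17, and 1 passed for Sublow and 5 for Negative. With a pseudocount of 10 RPM in place of 1, the ratio was called for 61 of the 123 in the F test.

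The 5 High calls were miR-5109_-_5 and miR-5109_+_6, lower in High, and miR-5115_-_4, miR-5115_+_4 and miR-320-3p_+_2, higher in High. Values of 0 entered the first 4 of them, so their sizes rest on the pseudocount. miR-5109_-_5 was listed at 0 in all 3 High libraries. miR-5109_+_6 was at 1.64 RPM in High 1, at 0 in High 2 and High 3, and at 5.31, 3.22 and 6.71 in Low, and at a pseudocount of 10 its ratio difference was -0.39 (limma adjusted p = 0.15). miR-5115_+_4 was at 12.4 RPM in High 1 and 5.95 in Low 1 and listed at 0 in the other High and Low libraries. Its unsuffixed row was at 947, 52.5 and 44.9 RPM in High and 1243, 366 and 326 in Low. The call of miR-5115_+_4 was lost at a pseudocount of 0.1 or 10 and on the logit scale of its share (limma adjusted p = 0.30, 0.085 and 0.11). miR-5115_-_4 was at 18.5, 5.57 and 5.81 RPM in High and 3.94, 0 and 3.52 in Low. Its call was lost at both pseudocounts (limma adjusted p = 0.058 for each), with a lane term (limma adjusted p = 0.13), and without High replicate 2, High replicate 3, Low replicate 1 or Low replicate 2.

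The 3 Negative calls were miR-5109_-_5 and miR-5109_-_2, lower in Negative, and miR-375-3p_-_2. The last was listed at 0 in all 3 Negative libraries, so its ratio difference of 3.36 came from the pseudocount, and at a pseudocount of 0.1 it was 0.24 (limma adjusted p = 0.95). For miR-5109_-_5 the ratio fell by 1.90 in Negative (limma adjusted p = 0.00041), from 17.9%, 25.6% and 29.5% of the unsuffixed row in Low to 5.70%, 6.53% and 7.34%. A lane term made the difference -1.24 and removal of the Combo libraries -1.49, neither of them called (limma adjusted p = 0.076 and 0.053). For miR-5109_-_2 the ratio fell by 1.26 in Negative (limma adjusted p = 0.0203), from 30.8%, 41.7% and 49.9% of the unsuffixed row in Low to 16.3%, 15.5% and 18.98%. Its difference was -0.70 under a lane term, -0.53 on the logit scale and -0.88 after removal of the Combo libraries (limma adjusted p = 0.26, 0.19 and 0.10). That call was also lost without Low replicate 2, Low replicate 3, Negative replicate 1 or Negative replicate 2. For miR-5105_+_5 the ratio differed among the populations (limma F test adjusted p = 0.00979) without a call in a single comparison with Low, and this was lost under a lane term (limma adjusted p = 0.26).

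**Figure D3:**
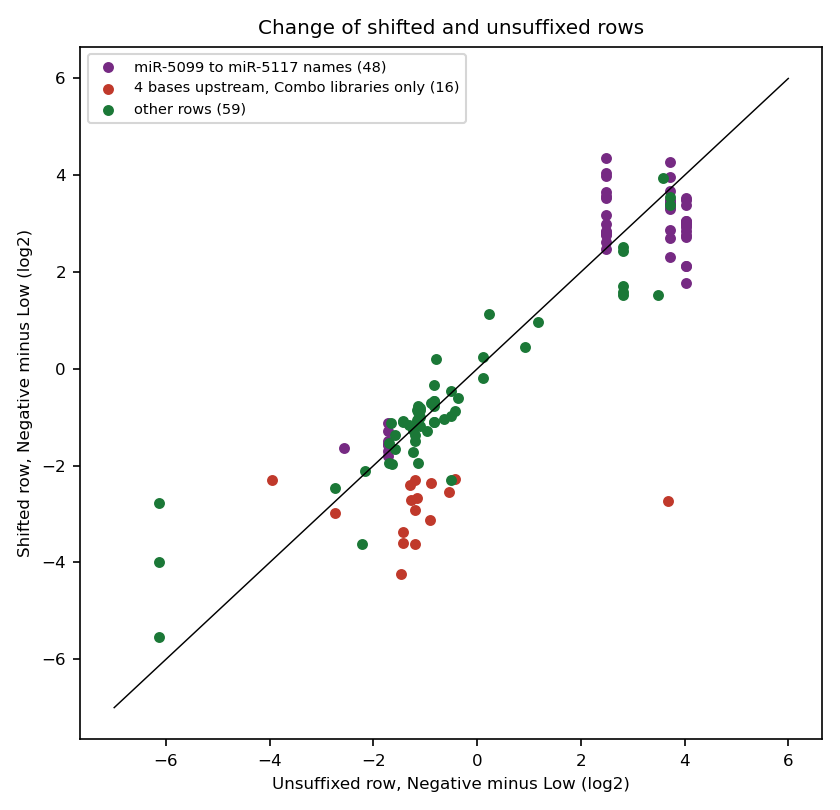
Difference between Negative and Low on the log2(RPM + 1) scale for each shifted row (vertical axis) against that of its unsuffixed row (horizontal axis), with the line of equal change, for the 123 rows with an unsuffixed row that passed the level rule. The 59 green and 48 purple points lie on both sides of the line, the 16 red points of rows listed only in Combo libraries mostly lie below it, and the 3 miR-375-3p rows at the left lie above it.

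Outside that set, 64 rows remain, 52 downstream and 12 upstream, and 59 of them had a ratio to the unsuffixed row. The ratio differed among the sorted populations for 6 of the 59 (10.2%, beside 8.42% of all 297) and was called between Negative and Low for 1. From Low to Negative 9 of the 64 rose and 24 fell, beside 16.5% and 49.5% of all rows. The 33 called were 51.6% of the 64, below the 66% of all rows. After median-ratio rescaling 14 rose and 6 fell, and with a lane term 8 rose and 12 fell. Leaving out the Combo libraries gave 10 and 14. Between Negative and Low the ratio differences of the 59 went both ways around a median of 0.04, from -1.97 in miR-295-3p_+_2 to 3.36 in miR-375-3p_-_2. miR-192, miR-194 and miR-215 are abundant in gut epithelium and under the control of hepatocyte nuclear factors. Of 12 rows of these names, 8 rose and 1 fell from Low to Negative and 6 rose from Low to Sublow, beside 16.5%, 49.5% and 10.4% of all rows in the same order, with median differences of 1.65 and 1.27 against -0.90 and -0.43 over all rows. A lane term left 7 rising in Negative and 3 in Sublow, and without the Combo libraries 8 and 3 of 11 did.

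miR-192-5p_+_2 was the most abundant row outside the first set. It was at 968, 1115 and 1096 RPM in High, 1141, 1318 and 995 in Low, 1227, 1262 and 1278 in Sublow, 871, 783 and 835 in Negative, and 866 and 975 in Non-sorted. The Negative libraries lay below all other sorted libraries. The level fell by 0.46 ± 0.11 from Low to Negative (limma adjusted p = 0.00307), but after median-ratio rescaling it was higher by 0.41 (limma adjusted p = 0.0189), so its direction depends on the scaling. The fall was also not called under a lane term (limma adjusted p = 0.083). As a share of the unsuffixed row it was 1.04% ± 0.05 (SD, n = 3) in High, 0.98% ± 0.11 in Low, 1.30% ± 0.16 in Sublow and 1.003% ± 0.053 in Negative libraries, and its ratio was not called in any comparison.

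miR-215-5p had 5 rows, at 2 to 6 bases downstream. miR-215-5p_+_2, which shares its seed with miR-192-5p_+_2, was at 4.5, 8.7 and 11.1 RPM in High, 7.6, 6.9 and 5.3 in Low, 33.1, 34.0 and 21.5 in Sublow, 49.1, 41.3 and 36.7 in Negative, and 56.7 and 42.4 in Non-sorted. High and Low overlapped, and every other library lay above both. Its level rose by 1.99 in Sublow (limma adjusted p = 0.000534) and by 2.52 in Negative (limma adjusted p = 2.84e-05), beside 2.33 and 2.82 for the unsuffixed row. miR-215-5p_+_3 rose by 1.33 in Sublow and by 1.71 in Negative, less than the unsuffixed row. Its ratio was -1.002 from Low to Sublow and -1.11 from Low to Negative, with no overlap of libraries and no call (limma adjusted p = 0.34 and 0.094). The ratios of miR-215-5p_+_4 and miR-215-5p_+_6 differed among the populations (limma F test adjusted p = 0.0375 and 0.0444). They differed from Low by -1.28 and -1.22 in Negative, where the libraries did not overlap and neither difference was called (limma adjusted p = 0.15 and 0.26). Both F test calls were lost with a replicate block (limma adjusted p = 0.055 for each), a lane term (0.37 and 0.42), a pseudocount of 0.1 and without the Combo libraries. Leaving out High replicate 2 or 3, Low replicate 2, any Negative library, or Sublow replicate 1 or 3 ended both, as did Low replicate 1 for miR-215-5p_+_4 and Low replicate 3 for miR-215-5p_+_6. At 2 bases downstream the row was 0.0088% to 0.023% of the unsuffixed row in every library. From the other arm, miR-215-3p_-_7 was listed at 0 in all High and Low libraries and at 23.3, 13.02 and 9.5 RPM in Negative. miR-194-1-3p_+_2 was at 31.1, 24.7 and 25.4 RPM in Negative and at 3.0, 0 and 3.9 in Low, and it rose by 3.38 ± 0.53 (limma adjusted p = 0.00014).

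miR-375 is an abundant miRNA of endocrine cells and had 3 rows. miR-375-3p_+_2 was at 485, 567 and 365 RPM in High, 294, 226 and 200 in Low, 53.5, 84.0 and 49.9 in Sublow, 2.9, 4.1 and 5.8 in Negative, and 47.4 and 45.2 in Non-sorted. The 4 sorted populations did not overlap. The level was 0.97 ± 0.27 higher in High than in Low (limma adjusted p = 0.0181), fell by 1.94 in Sublow (limma adjusted p = 0.000201) and fell by 5.53 in Negative (limma adjusted p = 7.43e-09). The High call was lost without High replicate 2, without Low replicate 2 or Low replicate 3, and without the Combo libraries, where the difference was 0.31 (limma adjusted p = 0.79). The unsuffixed row differed by 1.10, -1.91 and -6.14 in the same comparisons. As a share of that row, miR-375-3p_+_2 stayed between 0.31% and 0.57% in all 14 libraries. miR-375-3p_+_3 was at 12.4, 15.9 and 17 RPM in Low and listed at 0 in all Negative libraries. In the same list of endocrine and sensory miRNAs, miR-183-5p_+_7 was at 12.98, 26.99 and 23.3 RPM in High against 0, 6.1 and 3.2 in Low, 2.77 higher (limma adjusted p = 0.0133, 0.063 with a lane term and 0.074 at a pseudocount of 0.1). miR-183-5p_+_7 reached 10 RPM in the High libraries alone, so the rule that chose the rows favours this difference. Of the 6 rows on the list, 2 were higher in High than in Low, that row among them, beside 7.99% of all rows. From Low to Negative 4 fell and 0 rose, beside 49.5% and 16.5% of all rows. Under quantile normalization 2 fell in Negative, and without the Combo libraries 1 was higher in High and 4 fell in Negative.

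The miR-200 family, which keeps cells epithelial by repressing the Zeb factors, had 6 rows, 5 of them 2 bases downstream and miR-141-5p_-_2 upstream. From Low to Negative 5 fell, beside 49.5% of all rows, and from Low to High 2 were higher, beside 7.99%. After median-ratio rescaling 0 of the 6 fell in Negative in limma, 0 of them at an unadjusted p under 0.05. With a lane term or under quantile normalization 2 fell, and without the Combo libraries 3 fell and 0 were higher in High, 1 at an unadjusted p under 0.05. miR-200b-3p_+_2 was at 125.5, 139.7 and 150.1 RPM in High, 108, 72.8 and 62.7 in Low, 60.2, 61.4 and 68.8 in Sublow, 33.1, 28.5 and 35.6 in Negative, and 39.2 and 42.0 in Non-sorted. High lay above Low in every library, and Negative lay below all other libraries. The differences from Low were 0.80 ± 0.20 in High (limma adjusted p = 0.0106) and -1.27 ± 0.20 in Negative (limma adjusted p = 0.000147). Without the Combo libraries the first was 0.47 (limma adjusted p = 0.33), and after median-ratio rescaling the second was -0.41 (limma adjusted p = 0.13). miR-200c-3p_+_2, with the same seed, fell by 1.29 in Negative (limma adjusted p = 0.000609) and was -0.44 after that rescaling (limma adjusted p = 0.18). miR-200a-3p_+_2 fell by 0.70 in Negative (limma adjusted p = 0.024) but was 0.15 higher after the rescaling. That call was also lost without Low replicate 2, Negative replicate 1, Negative replicate 3 or the Combo libraries, with a lane term, with no filter and under quantile normalization. The ratio to the unsuffixed row was not called for any of the 6 rows.

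The let-7 family, whose members rise as many tissues mature, had 22 rows, of which 3 are of the Combo set. Rows of let-7c-1-5p and let-7c-2-5p with the same shift have the same shifted sequence by RefSeq, so the 22 rows are not all separate miRNAs. From Low to High 3 rose and 0 fell, beside 7.99% and 20.1% of all rows. From Low to Negative 0 rose and 6 of 22 fell, beside 16.5% and 49.5% of all rows, so the share that fell was below that of all rows. With a lane term 0 rose in High and 3 fell in Negative (limma), beside 3 and 6 at an unadjusted p under 0.05. After median-ratio rescaling 5 rose in High and 0 fell in Negative (0 at an unadjusted p under 0.05), and without the Combo libraries 0 of 19 passed in either comparison, beside 3 and 1 at an unadjusted p under 0.05. let-7b-5p_+_7 was at 42.5, 53.9 and 52.5 RPM in High, 7.7, 18.8 and 18.95 in Low, 3.9, 8.6 and 1.9 in Sublow, 5.4, 10.5 and 3.7 in Negative, and 9.0 and 8.8 in Non-sorted. Every High library lay above every other library. The High level was 1.74 ± 0.49 above Low (limma adjusted p = 0.0211), while that of the unsuffixed row differed by 0.05 (limma adjusted p = 0.82). Leaving out Low replicate 1, or either of High replicate 2 and High replicate 3, ended the call. So did a lane term, the lack of a filter on low values, and the removal of the Combo libraries, after which the difference was 2.62 (limma adjusted p = 0.13). As a share of the unsuffixed row it was 0.048%, 0.074% and 0.054% in High and 0.009%, 0.027% and 0.02% in Low. The ratio differed among the populations (limma F test adjusted p = 0.0365) and was not called between High and Low. That F test call was lost without any 1 of the High libraries, Negative replicate 1, Sublow replicate 1 or Sublow replicate 3, and under a lane term, a pseudocount of 0.1 or removal of the Combo libraries. let-7b-5p_+_6 was higher by 1.75 (limma adjusted p = 0.0188), and was lost without High replicate 3 or Low replicate 1. A lane term gave 1.10 and removal of the Combo libraries 3.05, neither of them called (limma adjusted p = 0.065 and 0.070). let-7b-5p_+_3, the most abundant of the downstream let-7 rows, was at 92.1, 154.5 and 189 RPM in High and 56.8, 87.8 and 63.3 in Low.

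miR-320-3p_+_2 was the 1 row outside the first set whose ratio was called between High and Low. As a share of its unsuffixed row it was 1.98%, 1.96% and 2.75% in High, 1.05%, 1.12% and 1.06% in Low, 1.19%, 1.16% and 1.07% in Sublow, and 1.16%, 1.46% and 0.957% in Negative libraries. Every High library lay above every other library. The ratio was 1.02 ± 0.20 (log2) higher in High than in Low (limma adjusted p = 0.0142). The unsuffixed row was at 4559, 4170.0 and 4307 RPM in High and 6055, 5059 and 6700.4 in Low, and the shifted row at 90.1, 81.7 and 119 in High and 63.8, 56.9 and 71.1 in Low. The ratio call was lost without High replicate 3, Low replicate 1 or Low replicate 3, each time with a difference of 0.86 to 1.01 (limma adjusted p = 0.056, 0.058 and 0.051). It was also lost with a lane term, where the difference was 0.84, and without the Combo libraries, where it was 1.38 (limma adjusted p = 0.082 and 0.052).

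**Figure D4:**
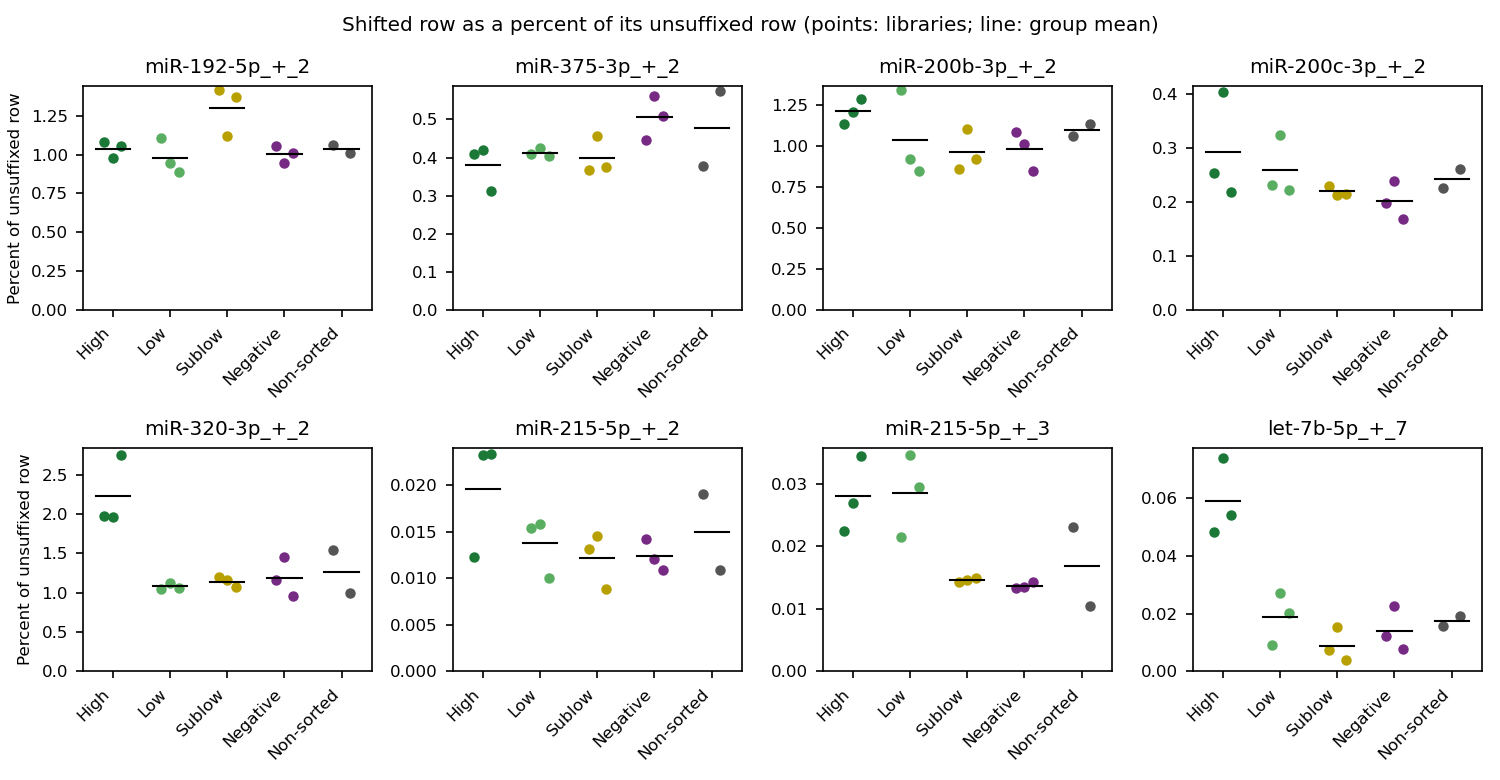
Level of 8 shifted rows as a percent of the unsuffixed row (vertical axis, from 0) in each library (points) by group, with the group mean as a line. miR-320-3p_+_2 and let-7b-5p_+_7 are highest in the 3 High libraries, while miR-192-5p_+_2 and miR-375-3p_+_2 stay in a narrow range.

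Among the rows linked to proliferation or differentiation, 3 of 9 were lower in High than in Low, beside 20.1% of all rows. miR-21-5p_+_2 fell by 1.35 (limma adjusted p = 0.00754), miR-378-3p_+_2 by 1.45 (limma adjusted p = 0.00876) and miR-203-3p_+_2 by 1.22 (limma adjusted p = 0.03). Without the Combo libraries the differences were -0.27, -0.42 and -0.97 and were not called (limma adjusted p = 0.73, 0.70 and 0.26). Leaving out High replicate 1, High replicate 3 or Low replicate 2, or a lane term, no filter or median-ratio rescaling, also ended the miR-203-3p_+_2 call.

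The upstream rows outside the first set and the Combo set were few. miR-142-5p is a haematopoietic miRNA, and miR-142-5p_-_2 stood above its unsuffixed row in 13 of 14 libraries. It was at 45.7, 0 and 14.3 RPM in High, 131, 4.0 and 81.2 in Low, 82.2, 8.0 and 116 in Sublow, 2.5, 3.0 and 65.5 in Negative, and 3.1 and 7.0 in Non-sorted. Within each sorted population the libraries differed from each other more than 10-fold or included a 0, and no comparison with Low was called. miR-181a-2-3p_-_3 had no unsuffixed row and was at 44.7, 16.4 and 38.6 RPM in High, 5.6, 13.4 and 22.8 in Low, 1.8, 2.9 and 2.9 in Sublow, and 0, 0 and 1.0 in Negative. Its level fell by 3.38 ± 0.65 in Negative (limma adjusted p = 0.000662; 0.096 with a lane term). miR-153-5p_-_5 had no unsuffixed row either and fell by 3.35 in Negative (limma adjusted p = 0.00113).

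The last set is 17 rows, all shifted 4 bases upstream, with values in the Combo libraries and 0 in the other 10 libraries. In 16 of them all 4 Combo libraries had a value, and in miR-126-3p_-_4 only 3 had. miR-122-5p_-_4 was at 93.4 and 410 RPM in High 1 and High 2 and at 67.6 and 96.1 in Low 2 and Low 3, and listed at 0 in High 3, Low 1 and all Sublow, Negative and Non-sorted libraries. The 17 rows were grouped by this presence, and Combo libraries exist in High and Low alone, so the label and the population cannot be told apart for Sublow and Negative. miR-26a-1-5p_-_4 was at 47.9, 202.7, 31.5 and 54.2 RPM in High 1, High 2, Low 2 and Low 3, and miR-26a-2-5p_-_4, whose 4 upstream bases differ as shown above, at 38.4, 169, 25.3 and 41.9. let-7f-1-5p_-_4 was at 43.7, 195, 36.4 and 49.3 RPM.

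The 16 rows with a value in all 4 Combo libraries also kept similar proportions. In these 16 rows High 2 exceeded High 1 by 3.18-fold to 4.90-fold (median 4.16). It exceeded Low 2 by 4.14-fold to 6.70-fold (median 5.94) and Low 3 by 3.34-fold to 5.11-fold (median 4.04). The unsuffixed rows of the same names did not share such a ratio: High 2 over High 1 ranged from 0.776-fold to 3.23-fold. As a share of the unsuffixed row in High 2, the same 16 rows ran from 0.391% to 857%, with miR-126-3p_-_4 left out. The sum of all 17 rows was 474 RPM in High 1, 1974 in High 2, 329.7 in Low 2 and 450.8 in Low 3. In the whole table, 53 of 104 rows shifted 4 bases upstream (50.96%) had values in 3 or 4 Combo libraries and in no other library, against 18 of 1392 other shifted rows (1.29%). Of those 18, 10 were among the 57 rows shifted 3 bases upstream, so the pattern was not confined to 4 bases. The depth was 2.86 to 13.4 in the Combo libraries and 1.89 to 16.4 in the others, in units of 1e+06 reads. Of the 17 levels, 0 were called in any comparison with Low (limma) and 0 had an unadjusted p under 0.05, while with a lane term 1 was called between High and Low. The part of the library preparation or sequencing in these values was not tested.

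**Figure D5:**
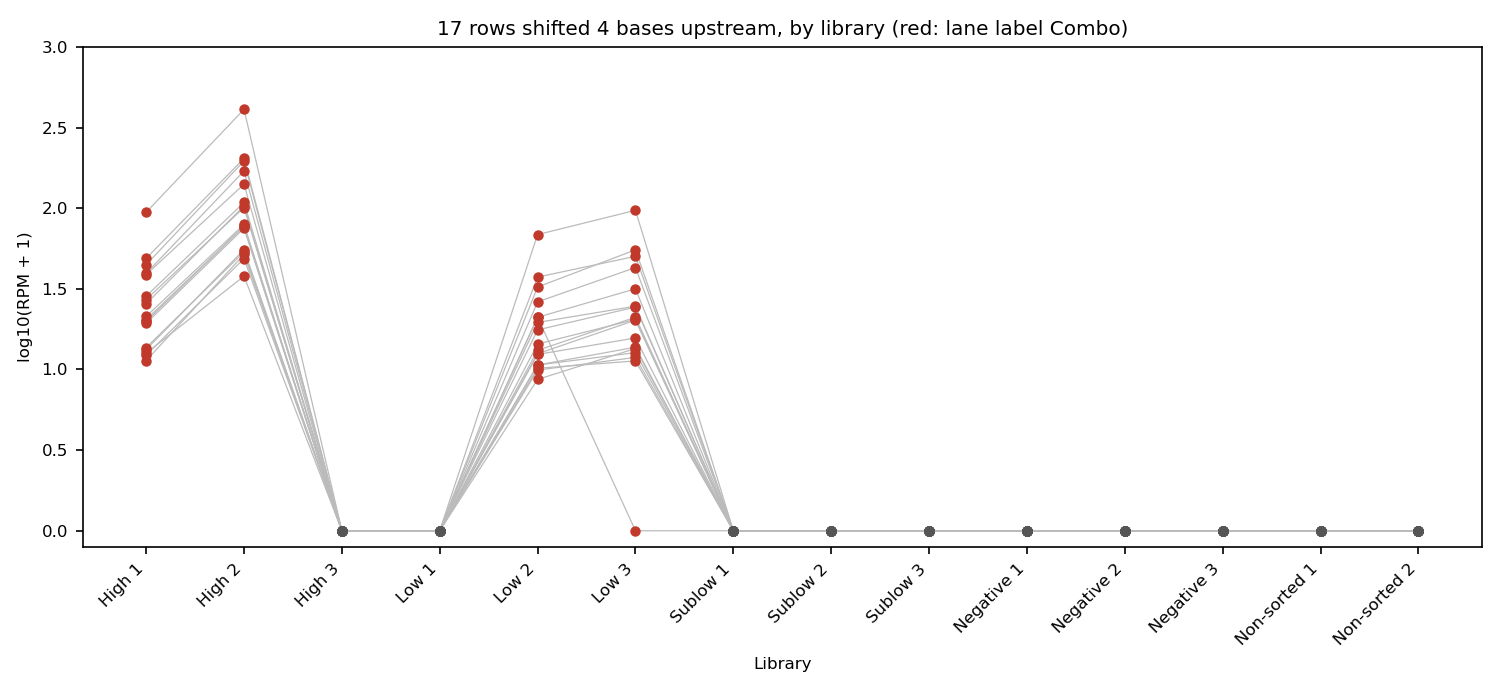
Level as log10(RPM + 1) (vertical axis) of the 17 rows shifted 4 bases upstream in each of 14 libraries (horizontal axis), with Combo libraries in red and a line joining the values of 1 row. Values lie above 0 in High 1, High 2, Low 2 and, but for 1 row, Low 3, and at 0 in the other 10 libraries.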

How the data were processed

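Small RNA libraries (TriLink CleanTag kit, per the labels' protocols) were deposited by the authors as 1 table of RPM values scaled to a total of 1e+06 over the miRNA rows of each library. The submitters' processing notes name mm9, while for aligner, counting settings and miRNA annotation version the sources used here give nothing. Groups were taken from the sample labels. Rows with at least 10 RPM in at least 3 of 14 libraries (588) were analysed as log2(RPM + 1) with limma 3.58.1 in R 4.3.3, with 1 linear model over 5 groups and a mean-variance trend. Differences are Low subtracted from the other group, tests are two-sided, and p-values were adjusted by Benjamini-Hochberg over all rows (588, or 297 for ratios), with a threshold of 0.05. This scale understates changes of low rows. Depth was read from the steps of low values, of which 70.4% to 86.7% were whole reads within 0.1 read. The procedure was tested on simulated data. Named rows were the 10 with the largest mean, up to 5 in each direction per comparison with no overlap and a mean of at least 100 RPM on the higher side, the 5 smallest ratio p-values, rows above their unsuffixed row, rows without one, and those with a seed of another miRNA. miR-320-3p_+_2, the miR-215, miR-194, let-7, miR-183, miR-200a, miR-200c, miR-295, miR-21, miR-378 and miR-203 rows were picked after their values were seen. The rows and lists were chosen with earlier results of these data known. Alternatives were other pseudocounts, no filter, other scaling, a lane term, a replicate block, a logit share, and libraries left out. The alternative without the Combo libraries was chosen after seeing the data.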

Additional observations from a re-analysis of the deposited data

How the results depend on the processing

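Counts of called rows are given here out of 135 for levels and 123 for ratios. A lane term reduced the level counts from 97 to 58 for any difference among populations, from 28 to 17 for Sublow and from 83 to 52 for Negative, and the ratio counts to 3 for any difference and 1 for Negative. Without the Combo libraries, with 1 library each left in High and Low and assumed to vary like the other groups, the level counts were 9 for High and 17 for Sublow, and the ratio counts 28 for any difference, 18 for High and 2 for Sublow. With a pseudocount of 10 the level count for High was 30, and the ratio counts were 61, 13, 18 and 41 for any difference, High, Sublow and Negative. With 0.1 the ratio counts were 6 for any difference and 3 for High. Without a filter the level count for Sublow was 17, and the ratio counts were 2 for Sublow and 13 for Negative. On the logit scale of a name's share, the ratio count for Negative was 5.

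Leaving out 1 library gave level counts of 78 to 110 for any difference, 14 to 24 for High, 15 (without Sublow replicate 1) to 43 (without Low replicate 1) for Sublow and 64 to 99 for Negative. The ratio counts were 10 to 26, 3 to 14, 0 to 3 and 2 to 8 in the same order, with the highest without High replicate 1 for the first 3 and without High replicate 3 for the last. After median-ratio rescaling, miR-192-5p_+_2 (0.41) and miR-200a-3p_+_2 (0.15) changed direction between Negative and Low.

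Libraries with the same replicate number had correlated deviations from their group means of -0.35 to 0.78 (median 0.33, 26 pairs), and 11 of 14 libraries correlated best with one of their own number. The shared code in the descriptions follows these numbers, but what it marks is not stated. The main fits were planned without the block, which was run as an alternative. With the replicate number as a block the level counts were 97, 22, 34 and 85, and the ratio counts were 18 for any difference, 1 for Sublow and 5 for Negative. Depth limits the low rows, since fewer than about 10 reads are listed as 0, and the ratio of a row listed at 0 rests on the pseudocount.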
